A study of Rattus norvegicus with 6 samples.

Results

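The genes described here belong to the unfolded protein response and the integrated stress response of the rat mandibular condyle, studied in cartilage cells of this joint surface of the lower jaw. They were chosen by name from knowledge of the pathway, with earlier results of these data known. They were taken by gene symbol, 32 genes of 17954 in the files, all of which passed the filter on low counts. They fall into 4 groups: 14 ER chaperones and their helpers, 7 genes of ER-associated degradation, 4 stress sensors and factors, and 7 genes made up of ATF4 and genes linked to it. mRNA was sequenced from 3 libraries of condylar cartilage organoids, kept in a chondrogenic medium, and from 3 libraries of flat (2D) cultures of condylar chondrocytes, kept in DMEM with 20% fetal bovine serum. Culture format, medium and serum therefore differed together and cannot be told apart. Strain, age, genotype and passage, and the origin of the replicates, are left unstated in the labels. A p-value here therefore weighs a difference against the spread of these libraries only, and that spread may be technical.

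A cell that secretes much protein relies on chaperones of the endoplasmic reticulum (ER) to fold it. When unfolded protein accumulates, the membrane sensors IRE1, PERK and ATF6 signal to the nucleus: IRE1 splices the mRNA of XBP1, ATF6 is cut to release a transcription factor, and PERK phosphorylates the initiation factor eIF2, which slows translation and favours production of ATF4. ATF4 is also raised by amino acid shortage, heme shortage and viral RNA through other eIF2 kinases, and this shared route is called the integrated stress response. Cartilage cells export large amounts of collagen, and in mice loss of ATF4 or of the related factor CREB3L2 disturbs growth plate cartilage. Splicing, cleavage and phosphorylation are not measured by counts per gene, so what follows concerns transcript levels alone.

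Library totals were 18592574 to 25656808 estimated counts in organoids and 25856486 to 26472447 in 2D cultures. Levels are counts scaled to library size by TMM (CPM), and because the files give no transcript lengths, levels are compared between groups for the same gene and not between genes. Collagen genes held 28.6% to 40.2% of all counts in organoid libraries, against 6.43% to 7.44% in 2D cultures. Rank correlations between libraries of a group were 0.847 to 0.913 in organoids and 0.992 to 0.994 in 2D cultures. All 8 chondrocyte markers were detected in every organoid, with a summed level of 11486 to 99455 CPM, against 1499 to 1601 CPM in 2D cultures, where the label of chondrocyte rested mainly on Acan, Sox9 and Hapln1: there Col2a1 stood at 2.91 to 4.89 CPM, and Col9a1, Col11a2 and Matn3 stayed below 1 CPM. The 5 smooth muscle markers summed to 34.0 to 47.1 CPM in organoids and 3610 to 3888 CPM in 2D cultures. The 6 osteoblast and osteocyte markers summed to 11953 to 19880 CPM in organoids and 207 to 220 CPM in 2D cultures. The 6 macrophage and osteoclast markers summed to 103 to 298 CPM in organoids and 139 to 141 CPM in 2D cultures, mostly from Ctsk. Csf1r read 32.5, 16.7 and 0.142 CPM in organoid 1, 2 and 3 and at most 0.279 CPM in 2D cultures. Acp5 had 98.98, 23.19 and 14.76 CPM in organoid 1, 2 and 3 and 3.55 to 4.35 CPM in 2D cultures. It was called higher in organoids (log2 fold change 3.50 ± 0.76, SE, edgeR adjusted p = 0.0174). Of the 6 markers 3 were tested, and the others tested, Cd68 and Ctsk, did not pass. Ptprc had at most 0.142 CPM in any library, and Tnfrsf11a was at 0 in all organoids. The 4 endothelial markers summed to 0.0946 to 2.18 CPM in organoids and 0.336 to 0.805 CPM in 2D cultures. The part of these other cell types in the results below was not tested, and in bulk samples fewer cells of a type and less RNA per cell cannot be told apart.

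Most of the stress-response genes did not pass the test, and those that did were spread over the 4 groups and both directions. Of the 32 genes, 2 rose in organoids (Syvn1 and Crebrf), 4 fell (Dnajc3, Atf6, Trib3 and Ppp1r15a) and 26 did not pass an adjusted p of 0.05 in edgeR's quasi-likelihood test, fitted over all 13052 genes with Benjamini-Hochberg adjustment. That is 18.8% of the members, against 27.5% of all genes tested, with 14.9% of all genes called higher and 12.6% called lower. Their median log2 fold change was -0.12, beside -0.03 over all genes. The libraries of organoids and 2D cultures did not overlap for 15 of the 32 genes, beside 53.5% of all genes: organoids lay higher for 7 (23.4% of all genes) and lower for 8 (30.2% of all genes). When libraries were scaled to their totals instead, which shifted the median of all genes by -0.612 on the log2 scale, 1 member was called higher (Crebrf) and 15 lower, among them 8 chaperones, beside 35.2% of all genes called. With any single 2D culture left out at most 1 call was left, Crebrf, and without organoid 1, 2 or 3 there were 13, 8 and 9 calls. Of all genes, 8.28% to 9.06% were called with a 2D culture left out, and 34.2%, 39.6% and 35.5% without organoid 1, 2 and 3.

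**Figure D1:**
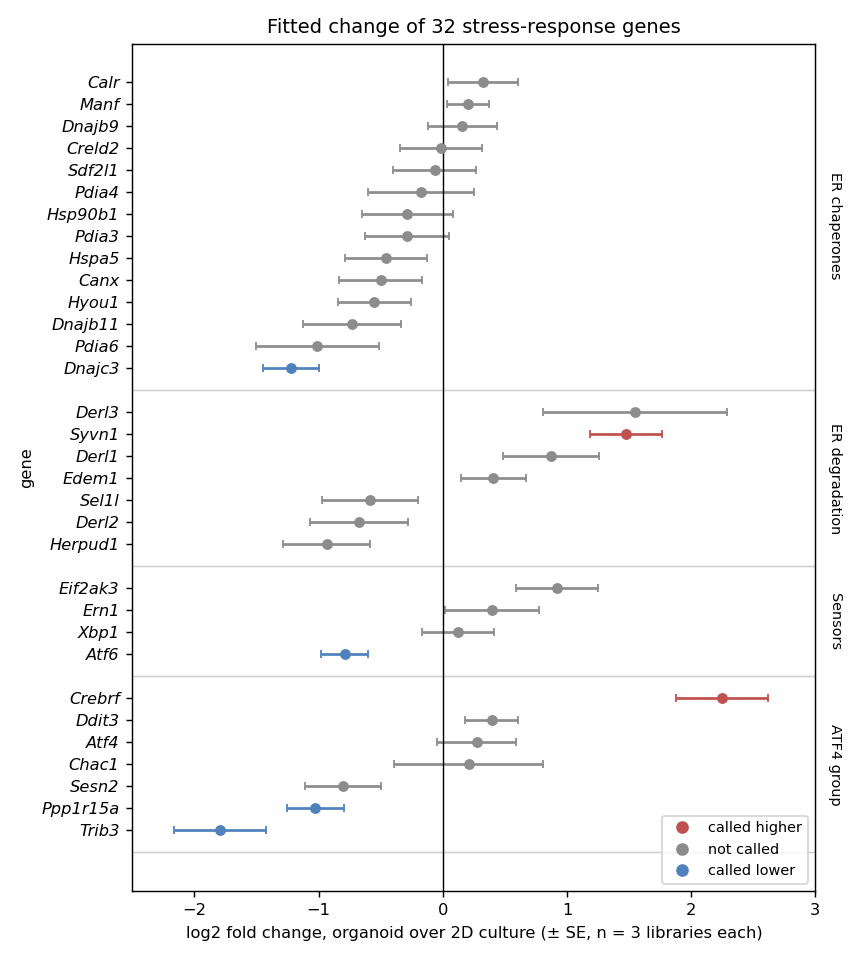
Fitted log2 fold change (organoid over 2D culture, horizontal axis) with its standard error for the 32 genes, grouped from top to bottom as chaperones, ER-associated degradation, sensors and the ATF4 group (n = 3 libraries in each culture type). Red points passed the test as higher in organoids, blue points as lower, and grey points did not pass; the called genes run from -1.79 for Trib3 to 2.25 for Crebrf.

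Of the 14 chaperone genes, 1 fell, 0 rose and 13 did not pass, beside 12.6% of all genes called lower and 14.9% called higher. The organoids differed widely among themselves. The fitted change was below 0 for 11 of the 14, beside 6656 of all 13052 genes. The median log2 fold change of the 14 was -0.29, beside -0.03 over all genes. Hspa5 (gene ID 25617), the ER chaperone BiP whose transcript is the usual readout of the unfolded protein response, stood at 1174, 584 and 600 CPM in organoid 1, 2 and 3, against 1149, 998 and 1091 CPM in the 2D cultures. Organoid 1 thus lay above the 2D cultures and the other organoids far below them (log2 fold change -0.46 ± 0.33, SE, edgeR adjusted p = 0.34). Hsp90b1, the ER form of the HSP90 chaperone, followed the same order, with 1169, 473 and 608 CPM in organoids and 969, 820 and 952 CPM in 2D cultures (-0.28 ± 0.37, edgeR adjusted p = 0.60). Without organoid 1 both passed as lower, Hspa5 by -0.85 (edgeR adjusted p = 0.0198) and Hsp90b1 by -0.73 (edgeR adjusted p = 0.0483). Hspa5 had a fractional count in 1 library, a sign of reads shared with other genes.

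The gene that passed was Dnajc3, which encodes p58IPK, a co-chaperone of BiP that also restrains PERK. It had 47.1, 37.9 and 59.2 CPM in organoids against 112, 108 and 116 CPM in 2D cultures. All 3 organoids lay well below all 3 2D cultures, at a mean of 48.1 ± 10.7 CPM in organoids and 112 ± 4.24 CPM in 2D cultures (SD, n = 3 each; log2 fold change -1.22 ± 0.22, edgeR adjusted p = 0.00983). The call was lost with any single 2D culture left out (edgeR adjusted p = 0.0517 to 0.0613), with a fold change between -1.21 and -1.26. Relative to Hspa5 in the same library, which no scaling can alter, the Dnajc3 count was 0.0402, 0.0649 and 0.0987 in organoids and 0.0978 to 0.108 in 2D cultures. Organoid 3 thus overlapped with the flat cultures on that measure, which is given without a test.

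The protein disulfide isomerases, which form and rearrange the disulfide bonds of secreted proteins, did not pass. Pdia6, which also limits IRE1 signalling, spread most, with 910, 210 and 476 CPM in organoids and 1118, 1036 and 1059 CPM in 2D cultures. Its organoid values covered a 4.33-fold range and all lay below the flat cultures (-1.01 ± 0.50, edgeR adjusted p = 0.177), and it passed without organoid 1 (-1.61, edgeR adjusted p = 0.0362), with total library size and with limma-voom weighted by group. Pdia4 had 844, 255 and 443 CPM in organoids and 533 to 606 CPM in 2D cultures (-0.18 ± 0.43, edgeR adjusted p = 0.789). Pdia3, the isomerase that works with calnexin and calreticulin on glycoproteins, had 713, 294 and 434 CPM in organoids and 564 to 611 CPM in 2D cultures (-0.29 ± 0.34, edgeR adjusted p = 0.569). Organoid 1 exceeded the 2D cultures for both isomerases, whereas organoids 2 and 3 lay below them.

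The lectin chaperones, which hold glycoproteins until they fold, parted in sign without passing. Calr, calreticulin, stood at 1007, 693 and 533 CPM in organoids and 590 to 603 CPM in 2D cultures (0.32 ± 0.28, edgeR adjusted p = 0.427). Canx, calnexin, stood at 632, 268 and 520 CPM in organoids and 618 to 706 CPM in 2D cultures (-0.50 ± 0.34, edgeR adjusted p = 0.31), and shared reads with other genes in 4 libraries. The sign for Calr turned with total library size (-0.34).

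The remaining chaperones and helpers ranged from -0.73 to 0.21. Dnajb11, a J-domain helper that delivers unfolded protein to BiP, had 160, 51.3 and 124 CPM in organoids and 181 to 194 CPM in 2D cultures. Hyou1, the exchange factor that recharges BiP, had 164, 98.8 and 81.6 CPM in organoids and 150 to 177 CPM in 2D cultures. Organoid 2 was the lowest for Dnajb11 and organoid 3 for Hyou1, and neither gene passed (edgeR adjusted p = 0.216 and 0.206), although Hyou1 did without organoid 1 (-0.88, edgeR adjusted p = 0.0213). Dnajb9, which returns BiP to IRE1 and so restrains it, had 42.4, 26.7 and 25.3 CPM in organoids and 26.2 to 31.9 CPM in 2D cultures. Sdf2l1, a partner of the BiP and J-domain cycle, had 54.1, 26.9 and 25.8 CPM in organoids and 35.5 to 38.6 CPM in 2D cultures. In both, organoid 1 lay above the flat cultures and the test was far from its threshold (edgeR adjusted p = 0.712 and 0.908).

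Creld2 and Manf are secreted ER stress proteins whose transcripts rise in mouse models of chondrodysplasia with misfolded matrix proteins. Creld2 had 147, 60.4 and 90.9 CPM in organoids and 95.4 to 105 CPM in 2D cultures (-0.02 ± 0.33, edgeR adjusted p = 0.975). Manf had 152, 151 and 157 CPM in organoids and 130 to 137 CPM in 2D cultures (0.21 ± 0.17, edgeR adjusted p = 0.40). Manf varied least among organoids of all 32 genes, with a 1.035-fold range, and its groups did not overlap although the difference was small. Creld2 spread over a 2.44-fold range in organoids, on both sides of the flat cultures.

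The chaperone transcripts were next set against the collagen transcripts whose products they help to fold. Summed over all collagen genes, organoids held 608270, 319380 and 366550 CPM, against 60272, 50843 and 60427 CPM in 2D cultures, a 7.54-fold higher mean. The 14 chaperone genes summed to 7217, 3231 and 4176 CPM in organoids, against 6549, 5904 and 6329.9 CPM in 2D cultures, a mean 0.779 times that of 2D cultures. Per 100 collagen counts there were 1.19, 1.01 and 1.14 chaperone counts in organoids and 10.9, 11.6 and 10.5 in 2D cultures, a ratio within each library that no scaling affects. Collagen and chaperone sums had the same order among organoids, organoid 1 first and organoid 2 last.

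**Figure D2:**
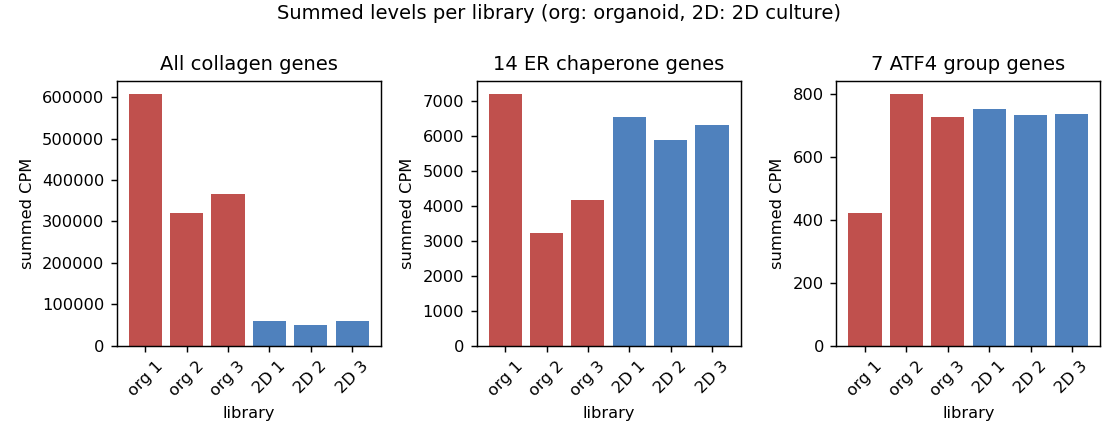
Summed CPM per library (vertical axes, starting at 0) of all collagen genes, of the 14 ER chaperone genes and of the 7 genes of the ATF4 group, with the 3 organoid libraries in red at left and the 3 2D cultures in blue at right. Collagen is higher in each organoid than in any 2D culture, while the chaperone sums run from 3231 to 7217 CPM in organoids around the 5904 to 6549 CPM of 2D cultures, and organoid 1 is highest for chaperones and lowest, at 423 CPM, for the ATF4 group.

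Promoters of the genes were next searched for elements known from the pathway. The ER stress response element, bound by ATF6 together with the factor NF-Y, was searched as CCAAT, 9 bases of any kind and CCACG, and its compact form ERSE-II as ATTGG, 1 base of any kind and CCACG, on both strands of the 250 bases before the first-listed start of each gene in RefSeq (GRCr8). Of the 32 genes 26 had a window in that table. The long element was found in 8 of the 26 windows (30.8%), against 0.0765% of all 27457 windows, and the compact element in 2 (7.69%), against 0.0437%. Among the 10615 windows of genes tested the shares were 0.151% for the long and 0.0848% for the compact element. Among the 11 chaperones with a window, 6 held the long and 1 the compact element, and 4 held neither (Pdia4, Dnajb9, Dnajb11 and Sdf2l1). The core TGACGTG, searched in the same way, was in 2 windows (7.69%; Hspa5 and Hyou1) against 1.59% of all, and in Hyou1 it overlaps the distal compact element. Of the windows of genes tested, 2.18% held this core. Since the genes were chosen by name as known members of the pathway, the shares among them describe that choice. Matched sites of chaperones and of Derl3, Xbp1 and Herpud1 are shown because they let the letters shared by these windows be seen, with 8 flanking bases, written 5′ to 3′ along the element, its fixed letters in capitals:
Hspa5: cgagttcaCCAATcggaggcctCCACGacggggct
Hsp90b1, distal: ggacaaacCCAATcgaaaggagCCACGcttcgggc
Hsp90b1, proximal: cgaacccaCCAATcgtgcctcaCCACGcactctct
Calr: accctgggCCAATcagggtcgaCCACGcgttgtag
Dnajc3: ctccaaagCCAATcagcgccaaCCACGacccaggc
Creld2: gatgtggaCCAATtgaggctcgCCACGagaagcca
Derl3: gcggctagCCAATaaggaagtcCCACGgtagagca
Xbp1: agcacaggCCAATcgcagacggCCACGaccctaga
Hyou1, compact form, distal: ggctgcggATTGGcCCACGtcacggtt
Hyou1, compact form, proximal: acgtccccATTGGgCCACGtagaagac
Herpud1, compact form: gggcgctgATTGGgCCACGttgggcac

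The Hspa5 site lies at chr3:38452965-38452999 on the plus strand, in the upstream flank of the gene, and its element begins 43 bases before the start. The Dnajc3 site lies at chr15:102432526-102432560 on the plus strand, with its element beginning 133 bases before the start, and the Xbp1 site at chr14:84604550-84604584 on the plus strand, 65 bases before. The 10 genes with either element held 0 called higher, 1 called lower (Dnajc3) and 9 not called, with log2 fold changes from -1.22 to 1.54. The 16 genes whose windows lacked both held 2 called higher and 2 called lower, with changes from -1.79 to 2.25. Of all genes tested 14.9% were called higher and 12.6% lower. The difference between genes with and without an element was not tested. A match of letters is a description and says nothing on whether a factor was bound in these cells.

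In ER-associated degradation, which pulls misfolded proteins out of the ER for destruction by the proteasome, the ubiquitin ligase rose while its adaptor did not pass. Of the 7 genes, 1 rose, 0 fell and 6 did not pass, beside 14.9% of all genes called higher and 12.6% called lower. The median log2 fold change of the 7 was 0.41, beside -0.03 over all genes. Syvn1 (gene ID 361712), the ligase HRD1, had 56.6, 104 and 62.3 CPM in organoids against 25.3, 27.0 and 28.1 CPM in 2D cultures. The lowest organoid lay well above the highest flat culture, with a mean of 74.5 ± 26.2 CPM in organoids and 26.8 ± 1.45 CPM in 2D cultures (SD, n = 3 each; 1.47 ± 0.29, edgeR adjusted p = 0.0124). The call was lost with any single 2D culture left out (edgeR adjusted p = 0.068 to 0.0748) and with total library size (0.89, edgeR adjusted p = 0.0931).

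Sel1l, the adaptor that stabilises HRD1, had 224, 117 and 77.6 CPM in organoids and 226, 189 and 214 CPM in 2D cultures. Organoid 1 lay within the range of the flat cultures and the other organoids lay below them (-0.58 ± 0.39, edgeR adjusted p = 0.305), and the gene passed as lower without organoid 1 (-1.09, edgeR adjusted p = 0.0243) and with total library size. Within each library the Syvn1 count per Sel1l count was 0.252, 0.89 and 0.802 in organoids and 0.112, 0.143 and 0.131 in 2D cultures. This ratio was chosen after the values were seen and is given without a test.

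The derlins, membrane proteins that form the exit channel, moved apart from each other without passing. Derl1 had 273, 91.3 and 206 CPM in organoids and 101, 100 and 110 CPM in 2D cultures, so organoid 2 lay below the flat cultures and the others well above them (0.87 ± 0.39, edgeR adjusted p = 0.14). It passed without organoid 2 (1.25, edgeR adjusted p = 0.00385). Derl2 had 62.7, 20.4 and 38.6 CPM in organoids and 61.6 to 68.8 CPM in 2D cultures (-0.68 ± 0.40, edgeR adjusted p = 0.247). Derl3, the form tied most closely to secretory cells, was scarce, with 3.48, 5.65 and 2.03 CPM in organoids and 0.644, 1.5 and 1.67 CPM in 2D cultures. Its groups did not overlap (1.54 ± 0.74, edgeR adjusted p = 0.165), but it shared reads with other genes in all 6 libraries.

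Herpud1, a scaffold of the degradation complex that ATF6, XBP1 and ATF4 all induce, had 117, 79.9 and 204 CPM in organoids and 255, 256 and 255 CPM in 2D cultures. Every organoid lay below the flat cultures, but the organoids spread 2.56-fold (-0.94 ± 0.35, edgeR adjusted p = 0.0911), and it passed without organoid 3 (-1.39, edgeR adjusted p = 0.0121). It also passed with DESeq2 (-0.91, adjusted p = 0.0421), with total library size and with limma-voom weighted by group. Edem1, a lectin that hands glycoproteins over for degradation, had 80.8, 47.2 and 51.2 CPM in organoids and 43.6 to 47.0 CPM in 2D cultures (0.41 ± 0.26, edgeR adjusted p = 0.286). Organoid 1 alone stood clearly apart for Edem1.

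Among the sensors, Atf6 fell and the others did not pass. Atf6 (gene ID 304962), the sensor that becomes a transcription factor, had 66.8, 66.2 and 84.7 CPM in organoids against 127, 125 and 124 CPM in 2D cultures. The groups were well separated and the organoids close together, at a mean of 72.6 ± 10.5 CPM in organoids and 126 ± 1.59 CPM in 2D cultures (SD, n = 3 each; -0.79 ± 0.19, edgeR adjusted p = 0.0234). The call was lost with any single 2D culture left out (edgeR adjusted p = 0.103 to 0.108). Xbp1, the factor made active by IRE1 splicing, had 383, 190 and 338 CPM in organoids and 284, 273 and 280 CPM in 2D cultures (0.12 ± 0.29, edgeR adjusted p = 0.791), with organoid 2 below and the others above the flat cultures. It passed as higher without organoid 2 (0.42, edgeR adjusted p = 0.0356) and turned in sign without organoid 1 (-0.05). The Atf6 count per Xbp1 count was 0.175, 0.349 and 0.251 in organoids and 0.443 to 0.458 in 2D cultures. This ratio has as its numerator a gene that had passed, and it is given without a test.

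Eif2ak3, the kinase PERK, had 66.8, 47.3 and 28.4 CPM in organoids and 26, 23.9 and 25.4 CPM in 2D cultures. All organoids were higher, organoid 3 by little (0.92 ± 0.33, edgeR adjusted p = 0.0836), and the gene passed without organoid 3 (1.18, edgeR adjusted p = 0.0143) and with DESeq2 (0.95, adjusted p = 0.0378). Ern1, the sensor IRE1 alpha, had 18.1, 12.1 and 18 CPM in organoids and 17.3, 9.84 and 9.35 CPM in 2D cultures. Its groups overlapped, with 2D culture 1 between organoids 2 and 3 (0.40 ± 0.38, edgeR adjusted p = 0.469).

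The ATF4 group was split within itself: Atf4 and Ddit3 did not pass, while Trib3 and Ppp1r15a, whose products feed back on the response, fell. Of its 7 genes, 1 rose, 2 fell and 4 did not pass, beside 14.9% of all genes called higher and 12.6% called lower. The median log2 fold change of the 7 was 0.21, beside -0.03 over all genes. Atf4 (gene ID 79255) itself had 196, 456 and 361 CPM in organoids and 272, 285 and 282 CPM in 2D cultures. Organoid 1 lay below and the other organoids above the flat cultures (0.27 ± 0.32, edgeR adjusted p = 0.568). Ddit3, the factor CHOP that promotes cell death under lasting stress, had 53.1, 71.2 and 75.0 CPM in organoids and 50.3, 49.3 and 52.1 CPM in 2D cultures. All organoids were higher, organoid 1 by little (0.39 ± 0.21, edgeR adjusted p = 0.208), and it passed without organoid 1 (0.55, edgeR adjusted p = 0.0472).

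Trib3 (gene ID 246273), a pseudokinase induced by ATF4 with CHOP that restrains both, had 18.3, 50.2 and 40.1 CPM in organoids against 132, 119 and 126 CPM in 2D cultures. No organoid came near the flat cultures, with a mean of 36.2 ± 16.3 CPM in organoids and 125 ± 6.33 CPM in 2D cultures (SD, n = 3 each; -1.79 ± 0.37, edgeR adjusted p = 0.0154). The Trib3 count per Ddit3 count was 0.344, 0.706 and 0.534 in organoids and 2.62, 2.41 and 2.42 in 2D cultures, a ratio chosen after the values were seen. Ppp1r15a (gene ID 171071), GADD34, the regulatory subunit that takes the phosphate off eIF2, had 70.8, 73.2 and 47.0 CPM in organoids against 136, 125 and 127 CPM in 2D cultures. It too was separated in every library, at 63.7 ± 14.5 CPM in organoids and 130 ± 5.77 CPM in 2D cultures (SD, n = 3 each; -1.03 ± 0.23, edgeR adjusted p = 0.0188). With any single 2D culture left out the edgeR adjusted p was 0.0591 to 0.0678 for Trib3 and 0.0795 to 0.092 for Ppp1r15a.

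Crebrf (gene ID 303016), a regulator that promotes breakdown of the ER-bound factor CREB3, rose most of the 32 genes. It had 33.3, 16.5 and 20.9 CPM in organoids against 4.75, 4.8 and 5.32 CPM in 2D cultures. The lowest organoid was well above the highest flat culture, with a mean of 23.6 ± 8.73 CPM in organoids and 4.96 ± 0.318 CPM in 2D cultures (SD, n = 3 each; 2.25 ± 0.37, edgeR adjusted p = 0.00688). It lost its call without 2D culture 1 (edgeR adjusted p = 0.052) and kept it in the other settings tried. Creb3, its target protein's gene, fell (-0.72 ± 0.19, edgeR adjusted p = 0.0345), with 123, 94.1 and 122 CPM in organoids and 184 to 190 CPM in 2D cultures; it shared reads with other genes in all 6 libraries and lost its call with any single 2D culture left out (edgeR adjusted p = 0.129 to 0.141).

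**Figure D3:**
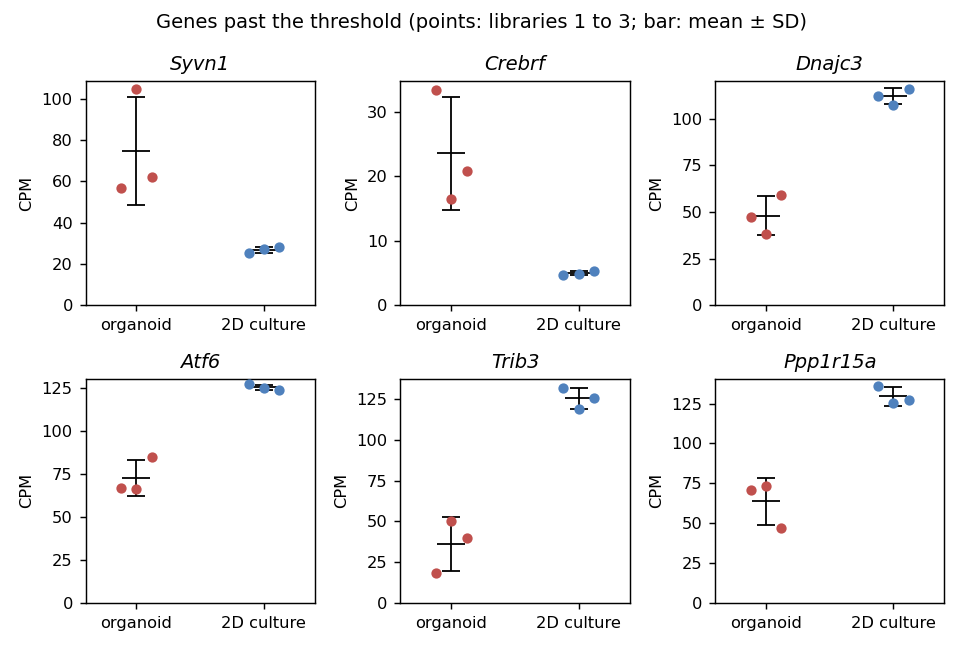
CPM per library (points) with mean and SD (bars) of the 6 genes that passed the test, organoids at left in red and 2D cultures at right in blue, each axis starting at 0. The genes were picked by that test. In all 6 panels the groups do not overlap, which also held for 53.5% of all genes tested. Syvn1 and Crebrf are higher in organoids, and Dnajc3, Atf6, Trib3 and Ppp1r15a lower.

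Chac1 and Sesn2 complete the group. Chac1, an enzyme that degrades glutathione and is a strong ATF4 target, had 16.9, 89.4 and 110 CPM in organoids and 61.5, 64.3 and 61.8 CPM in 2D cultures. It had the widest organoid range of the 32 genes, 6.53-fold, on both sides of the flat cultures (0.21 ± 0.60, edgeR adjusted p = 0.826). Without organoid 1 it passed as higher (0.70, edgeR adjusted p = 0.0364), and its sign turned with limma-voom, with the replicate block, with total library size and without organoid 3. Sesn2, sestrin 2, a leucine sensor that restrains the growth kinase mTORC1, had 34.6, 43.6 and 73.1 CPM in organoids and 95.9, 85.9 and 82.5 CPM in 2D cultures. Its groups did not overlap (-0.80 ± 0.31, edgeR adjusted p = 0.0954), and it passed as lower without organoid 3 (-1.18, edgeR adjusted p = 0.0113) and with total library size.

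The sequence searched for ATF4 with CHOP was TGATGCAA on both strands. It was found in 2 of the 26 windows (7.69%), in 0.656% of all windows and in 0.518% of those of genes tested. The 2 sites are shown because both genes are ATF4 targets of the list, and the Trib3 site, which has another letter at one place, because that gene fell (written along the motif with 8 flanking bases, matching letters in capitals):
Chac1: agcaggagTGATGCAAcggcggag
Herpud1: gtgcgggcTGATGCAAcccgccgt
Trib3: cgcccggcTGATGtAAacctgagc
The Trib3 site matched the wider search TGATGNAA, which takes in the narrower matches. That wider sequence was in 3 of the 26 windows (11.5%), in 3.27% of all windows and in 1.87% of those of genes tested. The Trib3 site lies at chr3:161275539-161275562, printed from the plus strand, against the direction of the gene. The edge of its motif farthest from the gene's start, where the printed motif ends, lies 21 bases before that start.

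The organoids differed from each other in opposite ways for chaperones and for the ATF4 group. Organoid 1 exceeded organoid 2 for 14 of the 14 chaperone genes and for 1 of the 7 genes of the ATF4 group (Crebrf), beside 50.8% of all genes tested. When libraries were scaled to their totals these were 12 of 14 and 1 of 7, beside 37.5% of all genes. The median log2 ratio of organoid 1 to organoid 2 was 1.12 for chaperones, -0.42 for the ATF4 group and -0.01 for all genes. Organoid 1 was the highest organoid for 12 of 14 chaperones (33.3% of all genes), and organoid 2 the lowest for 10 (38.3% of all genes). The order was not particular to chaperones: organoid 1 also exceeded organoid 2 for the 4 sensors and for 15 of the 19 further folding genes described below. Relative to the mean of 2D cultures, the median chaperone stood at 0.24, -0.92 and -0.48 on the log2 scale in organoid 1, 2 and 3, and the median gene of the ATF4 group at -0.87, 0.49 and 0.37. The summed chondrocyte markers had the chaperone order, at 99455, 11486 and 30636 CPM in organoid 1, 2 and 3, but Col11a2 did not, at 1406, 1478 and 980 CPM. Of the 6 osteoblast and osteocyte markers, Bglap, Sp7, Dmp1 and Mepe were lowest in organoid 1 (Bglap 780, 1473 and 1465 CPM), as was most of the ATF4 group, while Ibsp and Alpl were highest there. The part of these markers in the order was not tested. With 1 library for each organoid these differences have no replicate, and they are given as values of these libraries.

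**Figure D4:**
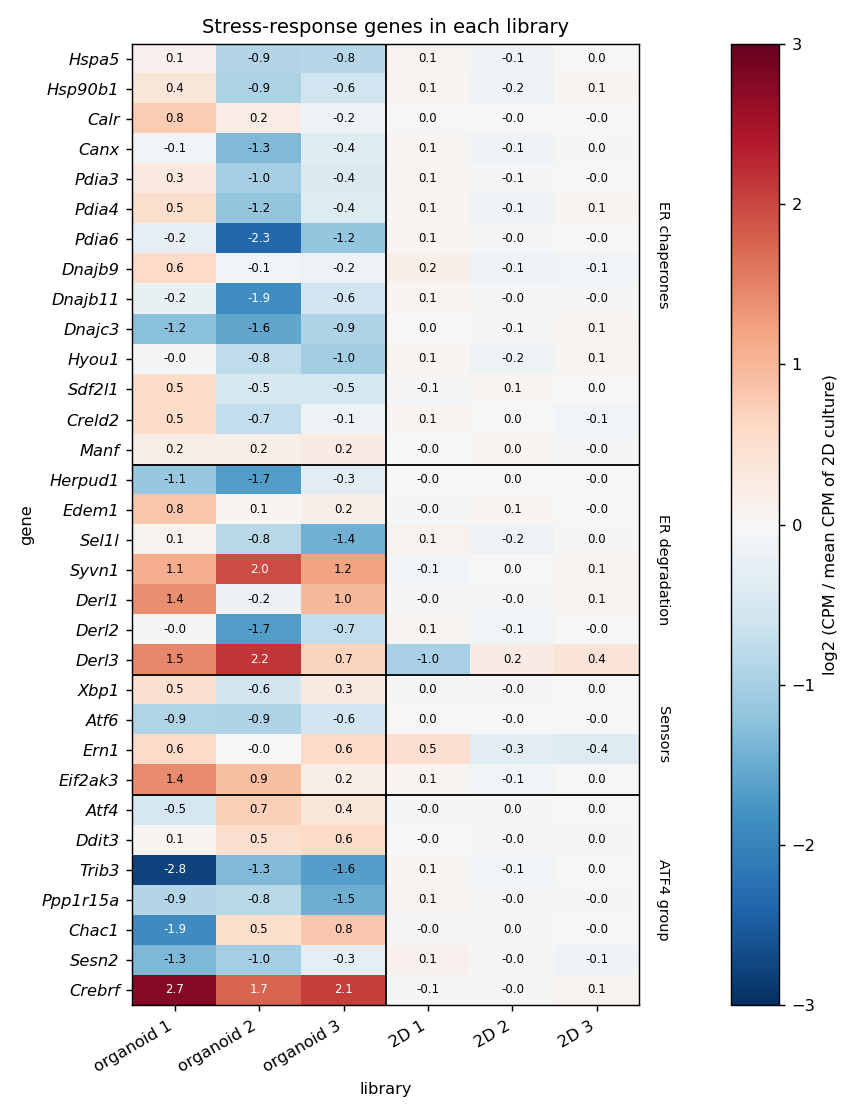
Log2 ratio of each library's CPM to the mean CPM of the 2D cultures for the 32 genes (rows, by group) in 3 organoid and 3 2D culture libraries (columns); red is above and blue below the 2D mean, and each cell prints its value. Organoid 1 is the highest organoid for 12 of the 14 chaperones (33.3% of all genes) and organoid 2 the lowest for 10 (38.3% of all genes). Atf4 and Chac1 lie below the 2D mean in organoid 1 and above it in organoids 2 and 3.

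Other genes of the pathway, taken from lists written by name, gave the surroundings. Beside the counts that follow, 14.9% of all genes tested were called higher and 12.6% lower. Of 19 further folding and oxidation genes 2 rose, 0 fell and 17 did not pass. Ero1a, the oxidase that recharges disulfide isomerases, had 1951, 624 and 873 CPM in organoids and 78.1, 69.3 and 74.7 CPM in 2D cultures (3.96 ± 0.48, edgeR adjusted p = 0.00255). It kept its call in the 13 other settings. Txndc11, a thioredoxin-domain ER protein, rose by 1.78 ± 0.43 (edgeR adjusted p = 0.0238), shared reads with other genes in 3 libraries, and lost its call with any single 2D culture left out and with total library size. P4hb, the isomerase that is also the beta subunit of collagen prolyl hydroxylase, had 4914, 1079 and 2105 CPM in organoids and 1233 to 1360 CPM in 2D cultures and did not pass (1.04 ± 0.53, edgeR adjusted p = 0.188); it was singled out after its values were seen.

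Of 21 further degradation genes 2 rose, 3 fell and 16 did not pass. Erlec1, a lectin that recognises misfolded glycoproteins, rose by 1.51 ± 0.23 (edgeR adjusted p = 0.00495), and Ubxn4 by 0.87 ± 0.21 (edgeR adjusted p = 0.0234), a call lost with total library size (0.28, edgeR adjusted p = 0.472). The extraction ATPase Vcp (-1.32 ± 0.40, edgeR adjusted p = 0.0496), its cofactor Ufd1 (-0.91 ± 0.21, edgeR adjusted p = 0.0209) and the ubiquitin-conjugating enzyme Ube2j2 (-1.12 ± 0.32, edgeR adjusted p = 0.0406) fell. With any single 2D culture left out only Erlec1 kept its call, in fits that called 8.28% to 9.06% of all genes.

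Of 12 tested ER membrane factors and sensor partners 3 rose, 2 fell and 7 did not pass. Creb3l1, the collagen-linked factor OASIS of osteoblasts, had 360, 2058 and 470 CPM in organoids and 45.1, 56.9 and 46.0 CPM in 2D cultures (4.29 ± 0.75, edgeR adjusted p = 0.00865). Organoid 2, the lowest for most chaperones, was the highest for Creb3l1. Its call was lost without 2D culture 1 and without 2D culture 3 (edgeR adjusted p = 0.0553 and 0.0528). Creb3l2, the factor that drives secretory genes in chondrocytes of the mouse, rose by 0.91 ± 0.22 (edgeR adjusted p = 0.0255), and Map3k5, a kinase downstream of IRE1, by 3.05 ± 0.36 (edgeR adjusted p = 0.00226). Rtcb, the ligase that joins spliced Xbp1 mRNA, fell by 1.03 on the log2 scale (edgeR adjusted p = 0.0417). With total library size the change of Creb3l2 was 0.26 (edgeR adjusted p = 0.379) and its call was lost. Of these, Map3k5 kept its call without each of the 2D cultures, while Creb3l2 and Rtcb lost it.

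Of 14 genes of eIF2, its other kinases and its exchange factor 2 rose, 1 fell and 11 did not pass. Eif2b2, a subunit of the exchange factor eIF2B, had 38.4, 28.5 and 53.7 CPM in organoids and 171 to 177 CPM in 2D cultures (-2.12 ± 0.27, edgeR adjusted p = 0.00305). Eif2ak4, the amino acid sensing kinase GCN2, rose by 1.39 ± 0.41 (edgeR adjusted p = 0.0443), and its partner Gcn1 by 0.62 ± 0.19 (edgeR adjusted p = 0.0489). Eif2b2 kept its call in the 13 other settings, whereas Eif2ak4 kept it in 4 and Gcn1 in 6.

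Of 25 tested further genes linked to ATF4 6 rose, 5 fell and 14 did not pass. Stc2, stanniocalcin 2, rose by 4.77 ± 0.47 (edgeR adjusted p = 0.00118), and Ddit4, an mTORC1 inhibitor in the cytosol, by 4.13 ± 0.25 (edgeR adjusted p = 0.000268). Nupr1, a stress-induced nuclear protein, had 138, 1022 and 222 CPM in organoids and 33.3 to 34.8 CPM in 2D cultures (3.76 ± 0.79, edgeR adjusted p = 0.0156), with organoid 2 far above the others, and lost its call with any single 2D culture left out. The amino acid genes Slc3a2, a transporter chain (-1.79 ± 0.22, edgeR adjusted p = 0.00231), Psph, of serine synthesis (-2.17 ± 0.23, edgeR adjusted p = 0.00148), and Cth, of cysteine synthesis (-2.17 ± 0.27, edgeR adjusted p = 0.00258), fell and kept their calls in the 13 other settings. The remaining called genes were Vldlr (2.66), Atf3 (1.91) and the amino acid enzyme gene Gpt2 (1.68), which rose, and Phgdh (-1.73) and Slc38a2 (-0.69), which fell. Their values in the other settings are not given. Further amino acid genes, among them Asns (-0.82) and Shmt2 (0.38), did not pass. In 5 of these 25 genes organoid 1 exceeded organoid 2, against 1 of 7 in the ATF4 group itself.

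The genes of cytosolic and mitochondrial chaperones, listed together with the heat shock factor gene Hsf1, were mostly lower in organoids. Of 13 tested, 9 fell, 0 rose and 4 did not pass, beside 12.6% of all genes called lower and 14.9% called higher. Their median log2 fold change was -1.05, beside -0.29 for the 14 ER chaperones and -0.03 over all genes. The difference between the lists was not tested. Hsph1, an exchange factor of HSP70, had 24.6, 23.1 and 26.4 CPM in organoids and 97.7 to 110 CPM in 2D cultures (-2.07 ± 0.19, edgeR adjusted p = 0.000898) and kept its call in the 13 other settings. The mitochondrial chaperonins Hspd1 (-1.95 ± 0.37, edgeR adjusted p = 0.0113) and Hspe1 (-1.56 ± 0.42, edgeR adjusted p = 0.034) fell as well. With any single 2D culture left out the number that fell was 2 to 3, in fits that called 399 to 437 of 13366 to 13395 genes lower. Hspd1 shared reads with other genes in all 6 libraries.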

How the data were processed

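Per the labels, mRNA libraries for the DNBSEQ platform were made from Trizol-extracted RNA of 3 organoid and 3 2D culture samples. Tools named in the submitters' processing notes are RSEM, Bowtie2, HISAT, HISAT2 and DESeq2, with neither version nor role; build, annotation and strand: not given in the sources used here. The authors deposited expected counts per gene (estimated counts, not normalised), with 1846 to 2501 values per library that are not whole; these were rounded to whole numbers.

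Groups and replicate numbers came from the sample titles. Genes were kept by filterByExpr (minimum count 10), scaled by TMM (factors 0.662 to 0.896 in organoids, 1.23 to 1.27 in 2D cultures) and tested over all genes with edgeR 4.0.16 (robust quasi-likelihood F-test, Benjamini-Hochberg adjustment, R 4.3.3). Each SE was derived from its F statistic. Alternatives used limma 3.58.1 and DESeq2 1.42.0, other scaling, no filter, a replicate block and each library left out. Left-out-library fits used edgeR and pooled the spread over the 5 libraries kept. The steps were tested on simulated data with the same spread in both groups and changes balanced in direction. The spread here differs between the groups, so that test does not cover this case. Within a group every pair of libraries differed beyond counting error (lowest chi-square 9.1 for each degree of freedom). The members and lists were chosen with earlier results of these data known. All members are reported, and of each other list up to 3 called genes per direction with the largest change and at least 1 CPM in the higher group. Of the further ATF4-linked list all called genes are named. A count of 3 corresponds to 0.0917 to 0.18 CPM in a library. Promoter windows are RefSeq's for GRCr8 and matched 26 of the 32 genes by gene ID. The sequence of 1 matched site is not reported here.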

Additional observations from a re-analysis of the deposited data

How the results depend on the processing

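Each of the 32 genes was refitted under 13 other settings: 346 values kept their direction and their side of the threshold, 27 gained a call, 18 lost one and 25 turned in sign; the causes were not tested. With total library size 1 member was called higher and 15 lower, and the sign turned for Calr (-0.34), Dnajb9 (-0.50), Manf (-0.41), Edem1 (-0.26), Xbp1 (-0.53), Ern1 (-0.23), Atf4 (-0.29), Ddit3 (-0.20) and Chac1 (-0.31) and, outside the 32, for Gcn1 (-0.0074); calls over all genes were then 23.1% higher, against 54.1% with TMM. Creld2 turned with TMM without collagen genes (0.035) and with DESeq2 (0.010), and Chac1 with limma-voom (-0.16), with limma-voom weighted by group (-0.15) and with the replicate block (-0.13). Leaving out each library in turn gave 0 to 4 members called higher, 0 to 9 called lower and 1109 to 5321 genes called in all. Over the same fits the log2 fold change ran from -0.73 to 0.0081 for Hsp90b1, -0.66 to 0.017 for Pdia3, -0.71 to 0.19 for Pdia4, -0.098 to 0.31 for Dnajb9, -0.48 to 0.15 for Sdf2l1, -0.39 to 0.29 for Creld2, -0.054 to 0.42 for Xbp1 and -0.25 to 0.70 for Chac1. With a replicate block 2 members were higher and 3 lower, 2730 genes passed in all and Atf6 lost its call (edgeR adjusted p = 0.068). After each gene's group mean was taken off, the deviations of same-numbered libraries correlated at 0.0606, 0.187 and 0.0207. Those of differently numbered libraries of the groups correlated at -0.135 to 0.0698. The numbers were not taken as pairs because the labels do not say that equal numbers share an origin. Outside the 32 the block also ended the calls of Creb3 (adjusted p = 0.0888), Ufd1 (0.0547), Ubxn4 (0.0669), Creb3l2 (0.0683), Eif2ak4 (0.0842) and Gcn1 (0.136). Of the 32 genes, 9 had an unadjusted edgeR p under 0.05, beside 5304 of all 13052.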
